A study of Mus musculus with 4 samples.

Results

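The genes described here are the D-type cyclins Ccnd1, Ccnd2 and Ccnd3, the kinases Cdk4 and Cdk6 that they activate, and the CDK inhibitors Cdkn1a, Cdkn1b, Cdkn2c and Cdkn2d. They were chosen by name, and every probe set whose platform symbol was one of these 9 genes was read. This gave 25 probe sets, none of them shared with another named gene, among 18193 genes represented on the array.

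A D-type cyclin is made when a cell receives growth signals, and it joins CDK4 or CDK6 to start the phosphorylation of the retinoblastoma protein. That step releases E2F factors, which switch on the genes of DNA replication and carry the cell from G1 into S phase. Inhibitors of the INK4 family, among them p18 (Cdkn2c) and p19 (Cdkn2d), bind CDK4 and CDK6 and keep the cyclin away. Inhibitors of the CIP/KIP family, p21 (Cdkn1a) and p27 (Cdkn1b), bind whole cyclin-CDK complexes. In T cells, IL-2 and antigen receptor signals induce Ccnd2 and Ccnd3, and p27 and p18 are known as brakes on T cell division.

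Total RNA came from 4 populations of CD4 T cells grown in culture, each measured on 1 Affymetrix array. The starting cells were from C57BL/6 mice aged 8 to 10 weeks, taken from spleen and from lymph nodes. Th0 and Th17 cells grew from naive CD4 T cells under Th0 or Th17 conditions. ExFoxp3Th17 and Treg cells grew from CD4 T cells that were Foxp3+ at the outset, the former in Th17 conditions and the latter with IL-2. After culture the cells were sorted on an IL-17 GFP signal and on Foxp3: Th17 and exFoxp3Th17 cells were positive for IL-17 and negative for Foxp3, Th0 cells were negative for both, and Treg cells were positive for Foxp3 alone. The labels give neither the number of mice behind a sample nor the length of culture.

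Values are MAS5 signal intensities on a linear scale. Values under a floor of 12.1 were set to it before ratios were taken. This floor is the pooled median of the 4 arrays without control probe sets. A difference was called when 2 arrays differed by 2-fold or more with the higher one above the floor. With 1 array a population there is no replicate check and no test, so every difference is one between 2 arrays. As a guide to noise within arrays, 2515 genes with 2 probe sets gave 2 log2 ratios each, and the robust SD of the gap between them was 0.36 to 0.50, depending on the comparison. This covers differences between probe sets, not between samples.

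The labels were checked first. Foxp3 stood at 584.9 on the Treg array and at 8.0 or less, under the floor, on the 3 others. Il17a, the gene behind the other sort marker, was under the floor on all 4 arrays, at 7.1 to 9.8, so its signal does not separate the gated populations. The female transcript Xist was at 3766 in exFoxp3Th17 and at 7.4 to 10.8 elsewhere, and Y-linked Eif2s3y was at 4.7 in exFoxp3Th17 and 654.5 or more elsewhere, so the sex of the mice behind the exFoxp3Th17 array also differed. Sex and population cannot be told apart in any comparison with that array. All 6 measured genes of the CD4 T cell list were above the floor, with a summed signal of 9963 to 11945. The list includes Cd3d, Cd3e, Cd3g, Cd5 and Cd2, which CD8 T cells share. Cd4 itself was at 48.3 to 109.6 and Cd8b1 at 51.7 to 83.5. The sums therefore do not show how far CD4 cells outnumbered CD8 cells. Of 3 B cell markers, Cd79b alone passed the floor, and their sum was highest in Treg at 59.9 (15.8 to 24.9 elsewhere). Of 6 myeloid markers Csf1r alone passed it (sums of 29.4 to 50.2), and of 3 NK cell markers Eomes alone, in Treg (28.7 against 7.1 to 14.6). Both CD8 T cell markers passed it, with sums of 66.0 to 97.0, and neither erythroid marker did (2.4 to 6.4). Their part in the differences was not tested.

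Upstream sequence is shown for Cdkn1a, the member that differed most between arrays, and for Cdk4 and Cdk6, of which the first was nearly level over the 4 arrays and the second was not. Each run is the 250 bases before a start site, 5′ to 3′ on the strand of the gene, from RefSeq's GRCm38.p6 promoter table, which held 7 of the 9 genes. The 5 motifs searched on both strands were the E-box CACGTG, the p53 core (CATG, any 6 bases, CATG), a STAT site (TTC, any 3 bases, GAA), an E2F site (TTTCCCGC, TTTGGCGC or TTTCGCGC) and the forkhead site GTAAACA. Capitals mark the matches, none of which overlap.
Cdkn1a, chr17:29090729-29090978, plus strand: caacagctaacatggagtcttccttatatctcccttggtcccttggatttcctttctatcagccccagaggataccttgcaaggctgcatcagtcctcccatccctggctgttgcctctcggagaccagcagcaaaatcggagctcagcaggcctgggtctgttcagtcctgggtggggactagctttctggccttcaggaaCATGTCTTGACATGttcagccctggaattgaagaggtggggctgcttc
Cdk4, chr10:127063285-127063534, plus strand: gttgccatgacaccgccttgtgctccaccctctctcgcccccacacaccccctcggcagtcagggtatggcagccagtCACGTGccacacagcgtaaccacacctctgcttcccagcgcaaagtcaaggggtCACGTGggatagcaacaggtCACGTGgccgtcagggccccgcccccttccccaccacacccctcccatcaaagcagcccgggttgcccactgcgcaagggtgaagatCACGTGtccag
Cdk6, chr5:3343643-3343892, plus strand: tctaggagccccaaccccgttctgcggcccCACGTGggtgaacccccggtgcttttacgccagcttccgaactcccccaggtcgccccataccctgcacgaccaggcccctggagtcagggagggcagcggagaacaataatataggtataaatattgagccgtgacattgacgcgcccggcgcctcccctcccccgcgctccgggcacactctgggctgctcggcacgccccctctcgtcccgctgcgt

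In the Cdkn1a run the capitals mark the core of a p53 response element, which began 48 bases before the start site. This core was found in 0.49% of 32851 upstream runs of the same length in the table, and it was not found before the second Cdkn1a start site that the table lists. In the Cdk4 and Cdk6 runs they mark the E-box CACGTG, a motif that Myc with its partner Max can bind. Cdk4 held 4 E-boxes, the nearest beginning 11 bases before the start site, and Cdk6 held 1. An E-box was found in 6.02% of the upstream runs. Cdkn1b, Cdkn2c and Cdkn2d held none of the 5 motifs searched, and Ccnd3 held 1 forkhead match before the first of its 2 start sites, on the minus strand. Of all upstream runs, 7.02% held the STAT site, 3.17% the forkhead site and 1.53% the E2F site. Ccnd1 and Ccnd2 had no entry. A match describes letters and is not a bound site.

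Of the 9 genes, 8 lay above the floor on all 4 arrays, and Ccnd1 lay below it on all 4 with each of its 3 probe sets. Ccnd1, the D cyclin of many epithelial and mesenchymal cells, reached at most 11.98, with one probe set in exFoxp3Th17, so no ratio was taken. The other genes fell into different orders over the arrays, as the plot of signal by array shows.

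**Figure D1:**
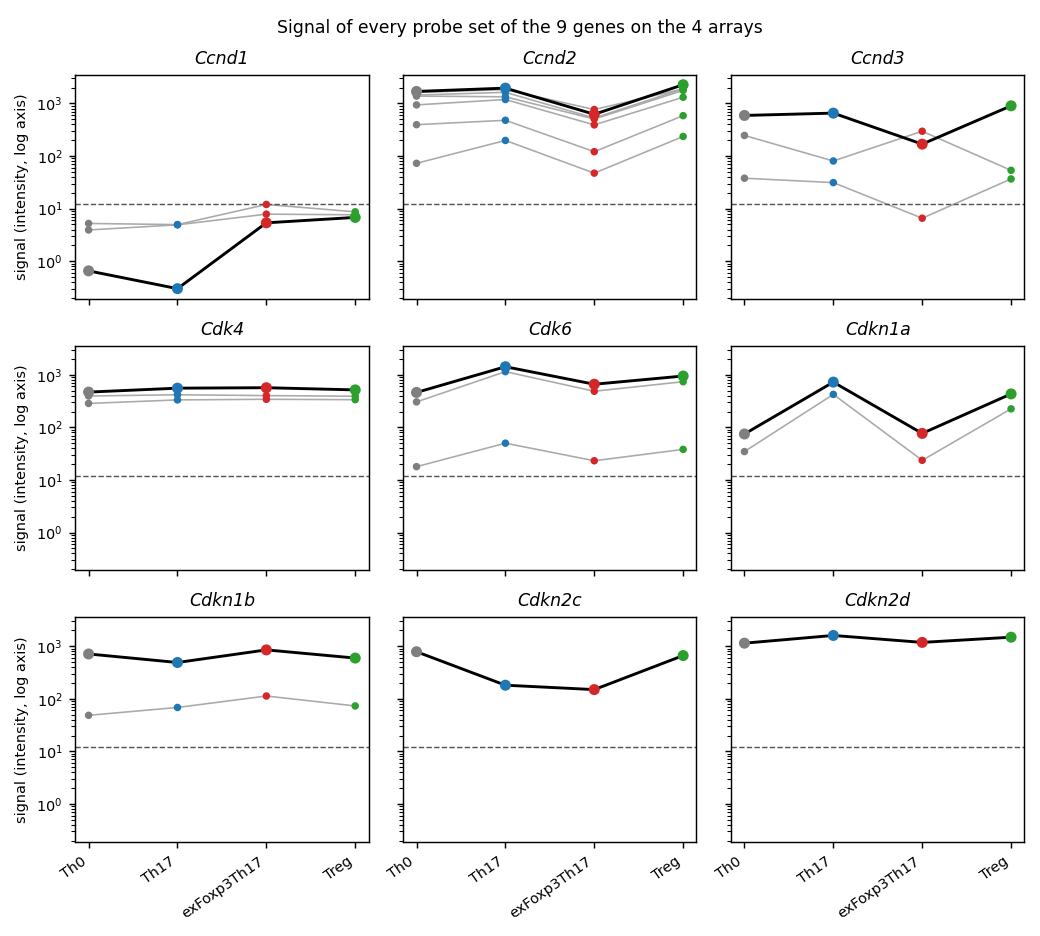
Signal intensity (log axis) of every probe set of the 9 genes on the Th0, Th17, exFoxp3Th17 and Treg arrays. Each line joins the 4 values of 1 probe set, with the probe set that represents the gene in black, and the dashed line is the floor of 12.1. Ccnd2 is lowest in exFoxp3Th17 with all 7 probe sets, the Ccnd3 lines cross, and Cdkn1a is high in Th17 and Treg.

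Ccnd2, a D cyclin that IL-2 induces in T cells, had its lowest level in exFoxp3Th17. Its brightest probe set had a signal of 1693 in Th0 and 1959 in Th17, with 622.7 in exFoxp3Th17 and 2273 in Treg. The Th0, Th17 and Treg arrays lay within 2-fold of each other, and exFoxp3Th17 stood below all of them. It was 3.15-fold lower in exFoxp3Th17 than in Th17, 3.65-fold lower than in Treg and 2.72-fold lower than in Th0. All 7 Ccnd2 probe sets put exFoxp3Th17 lowest and Treg highest, while Th0 and Th17 changed places in 1 of them. The 6 other probe sets were each lower by 2-fold or more in exFoxp3Th17 than in Th17 (log2 ratio -2.07 to -1.26) and than in Treg (-2.32 to -1.30). Against Th0, 5 of the 6 were. In bulk RNA, fewer cells of a kind and less RNA per cell cannot be told apart.

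Ccnd3, the D cyclin needed for the expansion of immature lymphocytes, gave opposed results with its probe sets. The brightest one had a signal of 592.0 in Th0 and 655.4 in Th17, with 168.5 in exFoxp3Th17 and 903.0 in Treg. By it exFoxp3Th17 was the low array, 3.89-fold below Th17, 5.36-fold below Treg and 3.51-fold below Th0. A second probe set was at 246.4 in Th0 and 80.5 in Th17, with 296.4 in exFoxp3Th17 and 53.5 in Treg. That is nearly the reverse order, with exFoxp3Th17 3.68-fold above Th17 and 5.55-fold above Treg. The third and dimmest probe set sided with the first, at 37.8, 31.2, 6.6 and 36.7 in the order Th0, Th17, exFoxp3Th17 and Treg. With the mean of the 3 probe sets in place of the brightest, the log2 ratio of exFoxp3Th17 was -0.48 against Th17 and -0.52 against Treg, and neither was called. Which Ccnd3 transcripts each probe set reads was not analysed here, so the direction for Ccnd3 rests on the choice of probe set.

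The partner kinases differed from each other. Cdk4, the kinase that D cyclins activate in most dividing cells, was nearly level: its brightest probe set was at 469.7 in Th0 and 557.9 in Th17, with 568.8 in exFoxp3Th17 and 517.1 in Treg. No pair of arrays differed by more than 1.21-fold with that probe set, and the 2 others were as flat, the largest of their log2 ratios being 0.26. Cdk6, the D cyclin kinase prominent in blood cells, was highest in Th17 and lowest in Th0. It had a signal of 462.6 in Th0 and 1427 in Th17, with 662.4 in exFoxp3Th17 and 949.0 in Treg. Th17 was 3.09-fold above Th0 and 2.16-fold above exFoxp3Th17, while Treg was 2.05-fold above Th0. All 3 Cdk6 probe sets put Th0 lowest and Th17 highest, and the 2 others were past 2-fold in each of those 3 comparisons. The difference between Treg and Th0 sat at the threshold and dropped under it with quantile normalization, at a log2 ratio of 0.96. Neighbours in the order Th0, exFoxp3Th17, Treg and Th17 lay within 2-fold of each other.

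Among the inhibitors, Cdkn1a had the widest span. It encodes p21, a target of p53 that growth and stress signals also induce. Its brightest probe set had a signal of 74.9 in Th0 and 726.7 in Th17, with 76.9 in exFoxp3Th17 and 433.7 in Treg. Th17 and Treg were high and lay within 1.68-fold of each other, and Th0 and exFoxp3Th17 were low and lay within 1.03-fold. Th17 was 9.70-fold above Th0 and 9.46-fold above exFoxp3Th17. Treg was 5.79-fold above Th0 and 5.64-fold above exFoxp3Th17. The second probe set divided the arrays in the same way, at 34.7 in Th0 and 424.9 in Th17, with 23.7 in exFoxp3Th17 and 225.4 in Treg.

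Cdkn1b, which encodes p27, the inhibitor that accumulates in resting cells, had no called difference. Its brightest probe set was at 711.7 in Th0 and 489.6 in Th17, with 850.6 in exFoxp3Th17 and 594.6 in Treg, highest in exFoxp3Th17 and 1.74-fold lower in Th17. The dimmer probe set was also highest in exFoxp3Th17, at 112.8 against 48.4 in Th0, 68.3 in Th17 and 73.0 in Treg. It put Th0 rather than Th17 lowest, and there exFoxp3Th17 was past 2-fold above Th0, at a log2 ratio of 1.22.

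Cdkn2c and Cdkn2d have 1 probe set each, so neither has a second reading. Cdkn2c, the gene of p18, had 2 high and 2 low arrays: 785.1 in Th0 and 663.8 in Treg against 181.1 in Th17 and 149.4 in exFoxp3Th17. Both arrays from Th17 conditions were low and both others were high, whatever the precursor. The low arrays were also those sorted positive for IL-17, so culture and sort cannot be told apart. Th17 was 4.33-fold below Th0, and exFoxp3Th17 was 4.44-fold below Treg. The 2 high arrays lay within 1.18-fold and the 2 low ones within 1.21-fold. Cdkn2d, the gene of the second INK4 protein, stayed within 1.40-fold over all arrays, at 1142 in Th0 and 1601 in Th17, with 1181 in exFoxp3Th17 and 1483 in Treg.

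Th17 and exFoxp3Th17 cells shared the culture conditions and the sort and differed in precursor and in the sex of the mice. Here exFoxp3Th17 had lower Ccnd2, Cdk6, Cdkn1a and, by its brightest probe set, Ccnd3. That is 4 of the 8 genes above the floor called lower and none higher. Over the 11841 genes above the floor on any array, 7.29% were called lower and 7.57% higher. The median log2 ratio of the 8 genes was -0.77, beside 0.03 over all genes tested. Cdk4, Cdkn1b, Cdkn2c and Cdkn2d were within 2-fold. The genes called lower included 2 cyclins and a kinase, which drive the cycle, and p21, which restrains it.

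Against Treg, which shares the Foxp3+ precursor, exFoxp3Th17 had lower Ccnd2, Cdkn1a, Cdkn2c and, by its brightest probe set, Ccnd3. These were 4 of 8 genes, with none higher, where 9.93% of all genes were called lower and 11.4% higher. The median log2 ratio was -1.19 over the 8 genes and 0.02 over all. This comparison shares the exFoxp3Th17 array with the preceding one, so the lower Ccnd2, Ccnd3 and Cdkn1a values in the 2 comparisons come from the same array.

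In cells of naive origin, Th17 against Th0 gave 2 genes higher, Cdk6 and Cdkn1a, and 1 lower, Cdkn2c, where 8.27% of all genes were called higher and 6.88% lower. Their median log2 ratio was 0.23 and that of all genes -0.02. Ccnd2 (1.16-fold) and Ccnd3 (1.11-fold) were not called by their brightest probe sets. The dimmest Ccnd2 probe set was 2.72-fold higher in Th17 than in Th0 and 3.24-fold higher in Treg than in Th0, past 2-fold unlike the 6 others. The second Ccnd3 probe set was 3.06-fold lower in Th17 than in Th0 and 4.61-fold lower in Treg than in Th0. Its dimmest probe set was 1.21-fold and 1.03-fold lower in these pairs. Treg against Th0, the 2 populations that were not in Th17 conditions, gave Cdk6 and Cdkn1a higher and none lower by the brightest probe sets. Of all genes, 5.56% were called higher and 4.94% lower in this pair. Here the median was 0.40 for the 8 genes and -0.01 for all. Of the 2 remaining pairs, Th17 against Treg had only Cdkn2c called, 3.66-fold lower, against 4.37% of genes called lower and 5.3% higher. ExFoxp3Th17 against Th0 had Ccnd2, Cdkn2c and, by its brightest probe set, Ccnd3 called lower and none higher. Of all genes, 8.4% were called lower and 10% higher in that pair.

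**Figure D2:**
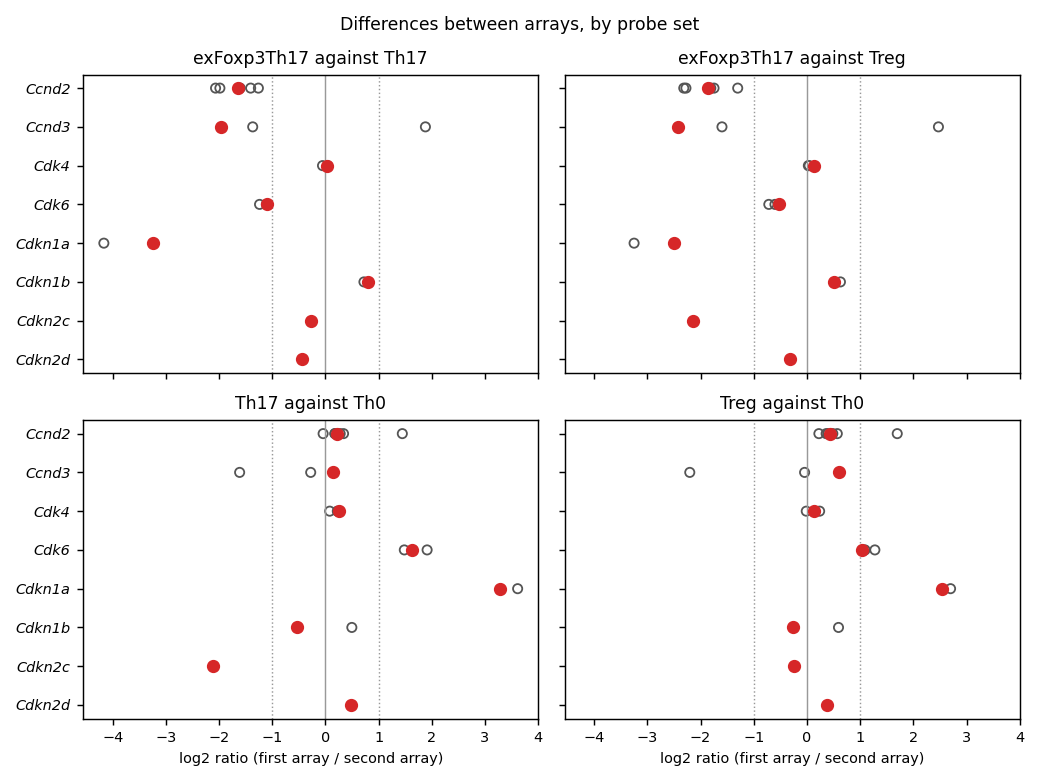
Log2 ratio between 2 arrays for the 8 genes above the floor, in 4 comparisons. Filled red points are the probe set that represents a gene, open points the others, and dotted lines mark 2-fold. Cdkn1a lies past 2-fold with both probe sets in all 4 panels, and 1 Ccnd3 probe set lies opposite the other 2 against Th17 and Treg.

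Th17 conditions were applied to both precursors, so Th17-condition cells can be set against other cells in each, with no array in common. Within each pair the sort differed along with the culture. For Cdkn2c the log2 ratio was -2.12 in naive-derived cells (Th17 against Th0) and -2.15 in Foxp3+-derived cells (exFoxp3Th17 against Treg). For Cdkn1a it was 3.28 in the former and -2.50 in the latter, called in both and opposite. Ccnd2 was at 0.21 and -1.87, Ccnd3 at 0.15 and -2.42 and Cdk6 at 1.63 and -0.52, each with opposite signs and called in one of the 2. Cdkn1b was at -0.54 and 0.52 and Cdkn2d at 0.49 and -0.33, opposite in sign and not called in either pair. These are the values of the brightest probe sets. The other Cdkn1b probe set was at 0.50 and 0.63, the same sign in both pairs, and the dimmest Ccnd3 probe set at -0.28 and -1.60. With its probe sets averaged, Ccnd3 was at -0.58 and -0.52. For Ccnd2, 1 of 7 probe sets had the same sign in both pairs, at -0.04 and -1.81. All probe sets of Cdk6 and Cdkn1a had opposite signs. Cdk4 was at 0.25 and 0.14. By the brightest probe sets, 6 of the 8 genes had opposite signs, beside 42.8% of the 11841 genes. A gene under the floor on both arrays of a pair has no sign there and cannot count as opposite. The 8 genes were above the floor on every array, so the 2 shares are not like for like. Of the 8, 1 (12.5%), Cdkn1a, was called in both pairs with opposite signs, beside 2.53% of all genes. The 2 pairs also differ in what they were compared with, since Th0 and Treg cultures were not the same. The sex of the mice differed within the Foxp3+-derived pair alone. Culture, sort and sex cannot be told apart there, and no test of the difference between pairs was possible.

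**Figure D3:**
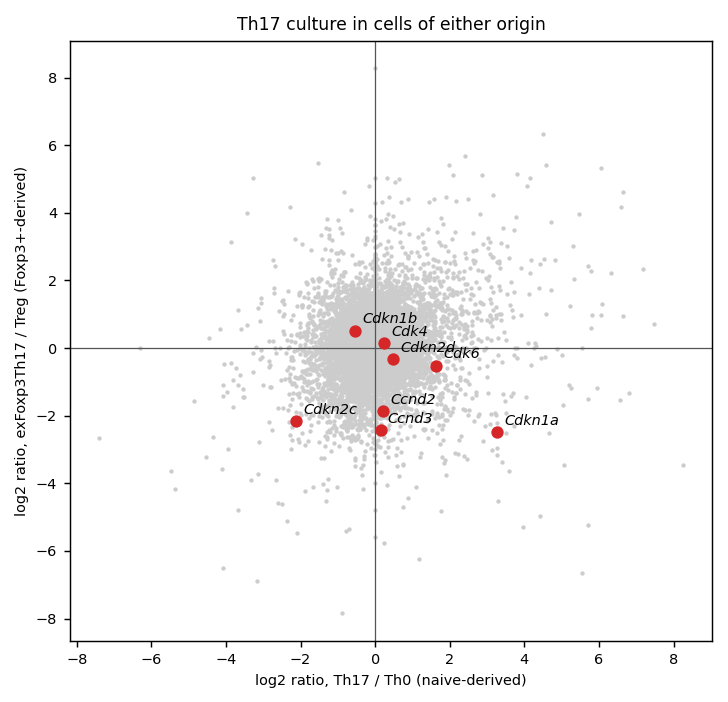
Each point is a gene above the floor: the horizontal axis is its log2 ratio between Th17 and Th0, the vertical axis that between exFoxp3Th17 and Treg. The named red points are the 8 genes, of which Cdkn2c lies at -2.12 and -2.15, and Cdkn1a at 3.28 and -2.50.

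The genes around this step were read from lists. These lists were chosen with earlier results known, so each is given by its count and median, with no test. The counts stand beside shares over all genes. In exFoxp3Th17, 7.29% were called lower and 7.57% higher than in Th17, and 9.93% and 11.4% than in Treg. In Th17 against Th0, 6.88% were lower and 8.27% higher. In Treg against Th0, 4.94% were lower and 5.56% higher. In the list of other G1 and S phase cyclins and kinases, 2 of 12 genes were lower in exFoxp3Th17 than in Th17 and none higher (median log2 ratio -0.45, with 0.03 for all genes). Cyclin E2, Ccne2, which acts with CDK2 after the D cyclins, was 4.35-fold lower (71.9 against 312.9), and cyclin A2, Ccna2, was 2.12-fold lower (509.4 against 1081). The related cyclin gene Ccne1 was at 108.6 and 149.6, not called. Against Treg, 4 of the 12 were lower and 1 higher (median -0.75). Besides the 2 cyclins these were Skp2, the ubiquitin ligase subunit that marks p27 for destruction (3.04-fold, 78.3 against 238.2), and its cofactor Cks1b (2.24-fold). Mnat1, a subunit of the kinase that activates CDKs, was the higher one (2.71-fold).

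The pocket proteins, on which the D cyclin kinases act, and the E2F factors were divided. Against Th17, 3 of 13 were lower in exFoxp3Th17, 2 higher and 8 neither (median -0.54), beside 7.29% of all genes lower and 7.57% higher. E2f1, an activator of S phase genes, was at least 4.72-fold lower (11.8, below the floor, against 57.1), and the repressors E2f7 and E2f8 were 3.55-fold and 3.05-fold lower. Rbl2, the pocket protein p130 of resting cells, was 2.10-fold higher (244.4 against 116.3), and the E2F partner Tfdp2 was 2.05-fold higher. Rb1 itself was at 559.1 in Th0 and 857.1 in Th17, with 1024 in exFoxp3Th17 and 685.9 in Treg, with no pair past 2-fold. Against Treg, 6 of 13 were lower and 1 higher (median -0.82).

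S phase genes that E2F activates were lower in exFoxp3Th17 than in Th17 in 12 of 17, with none higher (median -1.59). Cdc6, which loads the replicative helicase, was 5.30-fold lower (53.6 against 284.1), Mcm2, a subunit of that helicase, 4.75-fold, Cdc45 3.90-fold and Mcm3 3.34-fold. Against Treg all 17 measured were lower (median -2.11), Cdc6 by 8.46-fold. Between Th17 and Th0, 1 of 17 was lower and none higher (median -0.20), Tyms, which encodes thymidylate synthase (2.42-fold). Between Treg and Th0 none was called (median 0.32).

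G2 and M phase genes were lower in exFoxp3Th17 than in Th17 in 7 of 16 and higher in none (median -0.96), with the mitotic kinase Aurkb 4.40-fold and the checkpoint kinase Bub1 3.55-fold lower. Against Treg all 16 were lower (median -1.75). Th17 itself had 7 of the 16 lower than Th0 and none higher (median -0.92), led by Cdc25b, a phosphatase that activates mitotic CDK1 (6.83-fold, 137.7 against 941.0). Foxm1, the factor that activates many mitotic genes, was 3.27-fold lower and the mitotic kinase Plk1 2.75-fold. Between Treg and Th0 none of the 16 was called (median -0.25).

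The list of other CDK inhibitor genes had 4 members. Cdkn3, which encodes a CDK phosphatase, was lower on both Th17-condition arrays, at 266.6 in Th17 and 177.6 in exFoxp3Th17 against 701.8 in Th0 and 512.5 in Treg. Cdkn2a, the gene of a further INK4 protein, was at 34.7 in Th0 and 82.8 in Treg and below the floor in Th17 (1.9) and exFoxp3Th17 (4.7). Its neighbour Cdkn2b was above the floor in Treg alone, at 33.3. Cdkn1c, the gene of p57, was at 38.7 in Th0 and 12.5 in Th17, with 18.9 in exFoxp3Th17 and 22.1 in Treg. In total 3 of the 4 were lower in Th17 than in Th0 (Cdkn1c, Cdkn2a and Cdkn3), where 6.88% of all genes were. In exFoxp3Th17 against Treg 3 were lower (Cdkn2a, Cdkn2b and Cdkn3), where 9.93% of all genes were. Apart from those of Cdkn3, the lower values in these pairs were below or just above the floor.

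**Figure D4:**
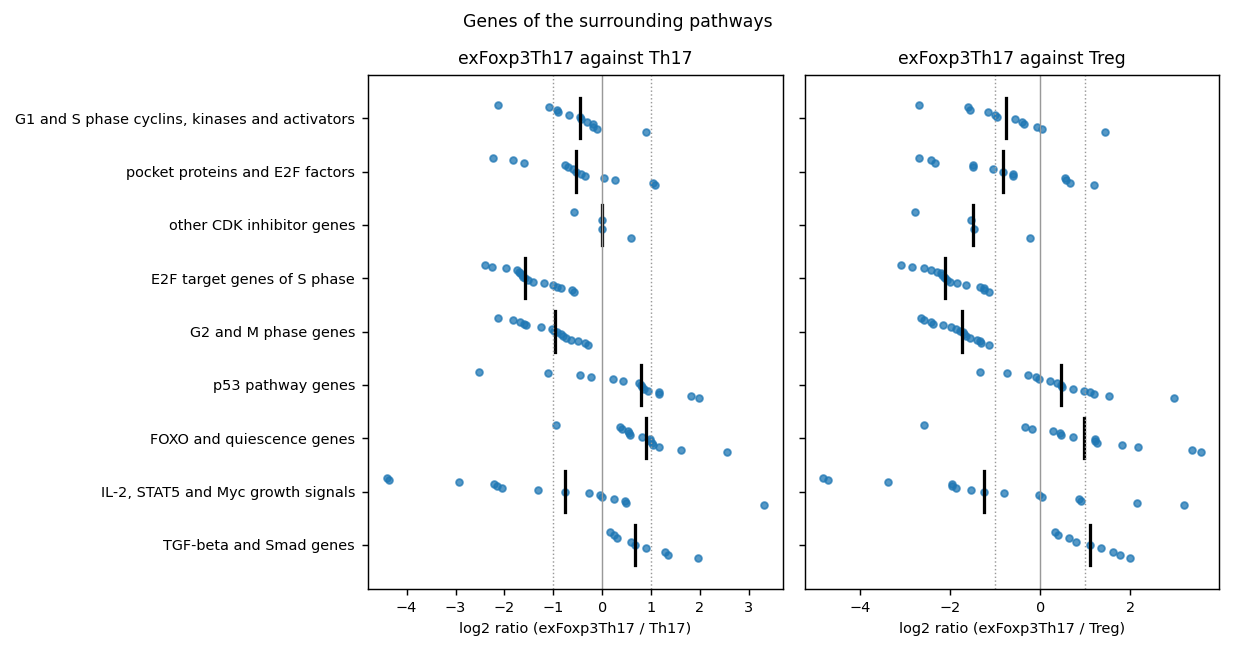
Log2 ratio of each measured gene (point) in 9 lists around the D cyclin step, for exFoxp3Th17 against Th17 and against Treg. Black bars are list medians and dotted lines mark 2-fold. The medians of S phase genes are -1.59 and -2.11, and those of FOXO and quiescence genes are 0.89 and 0.97.

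Upstream signals were read next. In the list of IL-2, STAT5 and Myc signals, 7 of 15 genes were lower in exFoxp3Th17 than in Th17 and 1 higher (median -0.77). Il2ra, which encodes CD25 and raises the affinity of the IL-2 receptor, was at 646.0 in Th0 and 2178 in Th17, with 102.6 in exFoxp3Th17 and 2878 in Treg. Its lowest value was on the array where Ccnd2 was lowest. Between Th17 and Th0, Il2ra was 3.37-fold and Ccnd2 1.16-fold higher in Th17. Whether the 2 genes are linked was not tested. Socs2 and Pim1, both induced by STAT5, were 20.5-fold and 7.65-fold lower in exFoxp3Th17 than in Th17. Myc, whose product can bind the E-box, was at 566.9 in Th0 and 986.1 in Th17, with 222.2 in exFoxp3Th17 and 527.3 in Treg. Cdk4 stayed within 1.21-fold, and whether Myc acts on it was not tested. Mxd4, an antagonist of Myc, was the higher one, at 2059 in exFoxp3Th17 and 208.2 to 464.4 on the other arrays.

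In the list of FOXO factors and quiescence genes, 5 of 14 were higher in exFoxp3Th17 than in Th17 and none lower (median 0.89). Pik3ip1, an inhibitor of PI3 kinase, was 5.87-fold higher (1104 against 188.1) and the metabolic regulator Txnip 3.08-fold. Slfn2, which keeps T cells quiescent, was 2.24-fold higher, and Ccng2, a cyclin that FOXO induces and that accompanies arrest, 2.04-fold (3567 against 1745). Against Treg, 7 of 14 were higher and 1, Klf2, was lower by 5.98-fold (median 0.97). Against Th0, 2 of 14 were higher in exFoxp3Th17 and 1 lower (median 0.25), where 10% of all genes were called higher and 8.4% lower. Il7r was 2.41-fold and Pik3ip1 2.34-fold higher there, and Klf2 was 9.48-fold lower. Th17 itself had 5 of the 14 lower than Th0 and none higher (median -0.85). Cdkn1b, a FOXO target, was highest in exFoxp3Th17 without being called.

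Other genes of the p53 pathway went in both directions. Against Th17, 4 of 15 were higher in exFoxp3Th17 and 2 lower (median 0.79), where Cdkn1a was 9.46-fold lower. Of all genes, 7.57% were called higher and 7.29% lower in that pair. Sesn1, a stress sensor, was 3.95-fold higher and Gadd45a, a damage-response gene, 3.50-fold. Perp, a p53 target linked to cell death, was 2.25-fold higher and Btg2, an inhibitor of proliferation, 2.23-fold. The kinase gene Plk2 was 5.76-fold lower (18.3 against 105.5) and the nuclease gene Aen 2.15-fold lower. Mdm2, the p53 target that degrades p53, stayed between 200.1 and 281.9. Th17 against Th0, where Cdkn1a was 9.70-fold higher, had 4 of the 15 higher and 3 lower (median 0.29), with Pmaip1, a p53 target that promotes apoptosis, 5.03-fold higher and Sesn1 4.60-fold lower. TGF-beta signalling can restrain Cdk4 and the cyclins, and its list holds receptors, Smads and repressors of the pathway. In exFoxp3Th17, 3 of 9 were higher than in Th17 and none lower (median 0.66). These were the receptors Tgfbr1 at 3.87-fold and Tgfbr2 at 2.53-fold, and the repressor Tgif1 at 2.44-fold. The repressors Smad7, Ski and Skil were 1.86-fold, 1.58-fold and 1.51-fold higher, not called. The list median mixes these kinds and gives no direction for the pathway.

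The 5 genes that spanned 2-fold or more were matched to 8463 other genes with a signal of at least 48.4 on some array. Likeness was the largest absolute difference between log2 profiles over the 4 arrays, each centred on its mean. Nearest to Ccnd2 were Prim2 (0.08), Ripk3 (0.10) and Anxa2 (0.11), and 48 genes lay within 0.25. Nearest to the brightest Ccnd3 probe set were Cdca7 (0.07), Ndc1 (0.11) and Kcnq5 (0.15), with 18 genes within 0.25, and nearest to Cdk6 were Fabp5 (0.09), Rrp1b (0.13) and Ift57 (0.14), with 22. Cdkn1a and Cdkn2c had 3 genes each within 0.25: Fam183b (0.11), Mcf2l (0.17) and Rgs1 (0.20) for Cdkn1a, and Tmprss13 (0.16), Rasgrp2 (0.18) and Ptgir (0.18) for Cdkn2c. Fam183b, Mcf2l and Tmprss13 lay below the floor on their 2 low arrays. Rgs1 did not, at 273.9 in Th0 and 2759 in Th17, with 247.2 in exFoxp3Th17 and 1280 in Treg. Over 4 arrays such matches are a description.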

How the data were processed

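The deposited values are signal intensities. The submitters' processing notes name MAS5 for them, without a version. MAS5 condenses the probes of a probe set into 1 value and scales each array. The mean after trimming 2% at each end was 100.0 on each of the 4 arrays, and the scaling was kept. Of 45101 probe sets, 64 controls were left out and 34945 of the rest had a single gene symbol in the platform annotation, updated through RefSeq for 34741. Scanner files and detection calls were not used here.

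Values were floored at 12.1, and of a gene's single-symbol probe sets the one brightest on average (mean log2) stood for it. A difference of 2-fold or more was called, without any test, since each population has 1 array, and the number of arrays limits the precision. Folds against values below the floor are written "at least". Genes were named by a rule: the members, up to 4 called genes a list and comparison, and the nearest profiles. Outside it, Ccne1, Cks1b, Tfdp2, Rb1, Mdm2, Myc, Btg2, Aen and Il17a were chosen after their values were seen. Members and lists were chosen with earlier results of these data known. Simulated data were used to test how calls are made. Python 3.11.15, numpy 2.4.6 and pandas 2.3.3 were used.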

Additional observations from a re-analysis of the deposited data

Results flagged for a closer look

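For 6 genes, read by the brightest probe set, the ratio of Th17-condition cells to their comparison array had opposite signs in the 2 precursors, which no array shares, and the difference was not tested. The difference between the log2 ratios, naive-derived minus Foxp3+-derived, was 5.77 for Cdkn1a, 2.57 for Ccnd3, 2.14 for Cdk6, 2.08 for Ccnd2, 0.82 for Cdkn2d and -1.06 for Cdkn1b. The opposite signs depend on the probe set for 3 of them. The other Ccnd3 probe sets gave -1.61 and 2.47, opposite the other way, and -0.28 and -1.60, the same sign, and their average with the brightest gave -0.58 and -0.52. The other Cdkn1b probe set gave 0.50 and 0.63, and 1 of 7 Ccnd2 probe sets gave -0.04 and -1.81.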

How the results depend on the processing

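The 7 alternatives were a floor of 0.5 or 2 times the main one, the floor as a pseudocount, quantile normalization, equal medians of expressed probe sets, averaging all probe sets of a gene, and a 3-fold threshold. Of 336 alternative values of the 48 gene ratios, 330 kept their side of the threshold. No called ratio changed sign. Of the ratios not called, 5 values did: with averaged probe sets Ccnd3 in Th17 against Th0 (0.15 to -0.58) and in Treg against Th0 (0.61 to -0.55), Cdkn1b in Treg against Th0 (-0.26 to 0.17) and Cdkn1a in exFoxp3Th17 against Th0 (0.04 to -0.26), and with equal medians Cdk4 in exFoxp3Th17 against Th17 (0.03 to -0.03). Of the 17 called ratios, 14 stayed called under every alternative other than the 3-fold threshold. In Treg against Th0 the count of called genes was 2 in the main setting, and 1 with quantile normalization and 1 at 3-fold, since Cdk6 left. The mean over probe sets took Ccnd3 under 2-fold in exFoxp3Th17 against Th17 (-0.48) and Treg (-0.52), where its probe sets oppose each other. Signals near the floor, as for Ccnd1, Cdkn2b and E2f1, carry the least information, and with 1 array a population none could be left out. No paired analysis was possible because each population has 1 array. At 3-fold, Cdk6 in exFoxp3Th17 against Th17 and Ccnd2 in exFoxp3Th17 against Th0 also left.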
